A study of Mus musculus with 10 samples.

Results

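A group of 10 genes of visceral and definitive endoderm was followed across sorted cells of differentiating mouse embryonic stem cells (ESCs), namely *Sox17*, *Sox7*, *Hhex*, *Ttr*, *Afp*, *Apoa1*, *Apoe*, *Amn*, *Cubn* and *Dab2*. Every probe set that the platform annotation assigns to 1 of these genes alone was taken, which gave 10 of 18194 named genes and 26 of the 45101 probe sets on the array. The genes were listed by name and not by a cut on their signals, but with earlier results of these data known. RNA was measured on 10 Affymetrix mouse genome arrays, 2 for each of 5 populations isolated by fluorescence-activated cell sorting. In vitro derived primordial germ cells (iPGCs) of the Oct4-Gfp line, of mixed genetic background, were Oct4-Gfp+/cKit bright cells of day 6 embryoid bodies (EBs), and iPGCs of the V6.5 line, a 129xBL6 F1 background, were SSEA1+/cKit bright cells of the same stage. Oct4-Gfp somatic cells were those without reporter or cKit signal, and V6.5 somatic cells those without SSEA1 or cKit. ESCs were SSEA1+/cKit+ V6.5 cells at day 0, maintained on mouse embryonic fibroblasts. Line and sorting marker changed together, so their parts in a difference between lines cannot be told apart, and no Oct4-Gfp ESCs were analysed here.

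Visceral endoderm is the extraembryonic layer that surrounds the early embryo, takes up maternal nutrients by endocytosis and secretes serum proteins and lipoproteins. Definitive endoderm arises at gastrulation and gives rise to the gut and its organs. Both layers use SOX and homeobox transcription factors, several of which also act in endothelium, and both can form in EBs. The genes here fall into regulators (*Sox17*, *Sox7*, *Hhex*), secreted proteins (*Ttr*, *Afp*, *Apoa1*, *Apoe*) and parts of the uptake machinery (*Amn*, *Cubn*, *Dab2*).

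The deposited values are MAS5 signal intensities in arbitrary units, with a trimmed mean of 500 on each array. A signal was called within background when it did not exceed the 95th percentile of 43 olfactory receptor probe sets on its own array, a level between 12.6 and 25.4. Median signals lay between 53.7 and 91.6 per array. The 3' to 5' signal ratio of *Gapdh*, which rises with shorter RNA, was 1.51 to 2.37 on iPGC arrays, 1.65 to 2.05 on somatic arrays and 1.28 to 1.30 on ESC arrays, and its part in the results was not tested. Pluripotency and germ cell markers (*Pou5f1*, *Nanog*, *Sox2*, *Zfp42*, *Kit*, *Prdm1*, *Dppa3*) summed to 30405 to 31961 on iPGC arrays, 510.2 to 1304 on somatic arrays and 27417 to 28121 on ESC arrays. cKit and, in the Oct4-Gfp line, Oct4-Gfp were sort markers, so for *Kit* and *Pou5f1* the low somatic signal followed from the sort. The sum is not read as telling iPGCs from ESCs. Each array was taken as 1 sample. The labels do not say whether the 2 arrays of a population came from separate cultures, so p-values measure only the spread between these arrays, which may be technical. In these bulk samples fewer cells of a type and less RNA per cell cannot be told apart.

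Differences were tested with limma on log2 of the signal plus 14.8, and p-values were adjusted over the 26368 probe sets with a signal above the array median on 2 arrays or more. The offset shrinks the changes of dim probe sets. Of the 10 genes, 8 had a tested probe set, each gene being represented by the probe set with the highest mean signal. *Cubn* and *Afp* were above the array median on no array and did not pass this filter. *Sox17* and *Sox7* passed that filter through somatic arrays only (4 and 3 arrays), and *Amn* through 1 array of each iPGC population. A test of those cells against others was therefore open to these genes because they were high there. No ESC array of *Dab2* or *Ttr* exceeded the array median either. Where every array of one population lay within background, the change is also given as a bound, "at least N-fold". It is the mean log2 signal of the brighter population against the mean, per array, of the higher of the background and the dim signal.

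The endoderm genes did not move as 1 group. In V6.5 somatic cells 4 of the 8 tested genes were higher than in V6.5 ESCs (*Dab2*, *Ttr*, *Sox17*, *Sox7*) and 2 were lower (*Apoe*, *Amn*), where 62.1% of all 12199 genes tested were called (30.3% higher and 31.8% lower). In V6.5 iPGCs 2 of the 8 were higher than in ESCs (*Dab2* and *Ttr*) and 0 were lower, beside 30.2% of all genes called (17.3% higher, 12.9% lower); 4 of the 8 had an unadjusted p under 0.05 in limma, and the count fell to 0 under a rule of at least 3-fold with an unadjusted p under 0.01. Against V6.5 somatic cells, V6.5 iPGCs were higher for *Apoe* and *Amn* and lower for *Dab2*, *Ttr* and *Sox7*, beside 51.5% of all genes called (27.3% higher, 24.2% lower). Oct4-Gfp iPGCs against Oct4-Gfp somatic cells gave the same 5 calls and 2 further lower genes, *Sox17* and *Apoa1*, beside 50.4% of all genes called (25.7% higher, 24.8% lower). With 8 genes, some of which were tested only because they were high in one of the populations, nothing is read from these counts about the endoderm genes as a set. The comparisons share arrays, so their calls are not independent of each other.

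**Figure D1:**
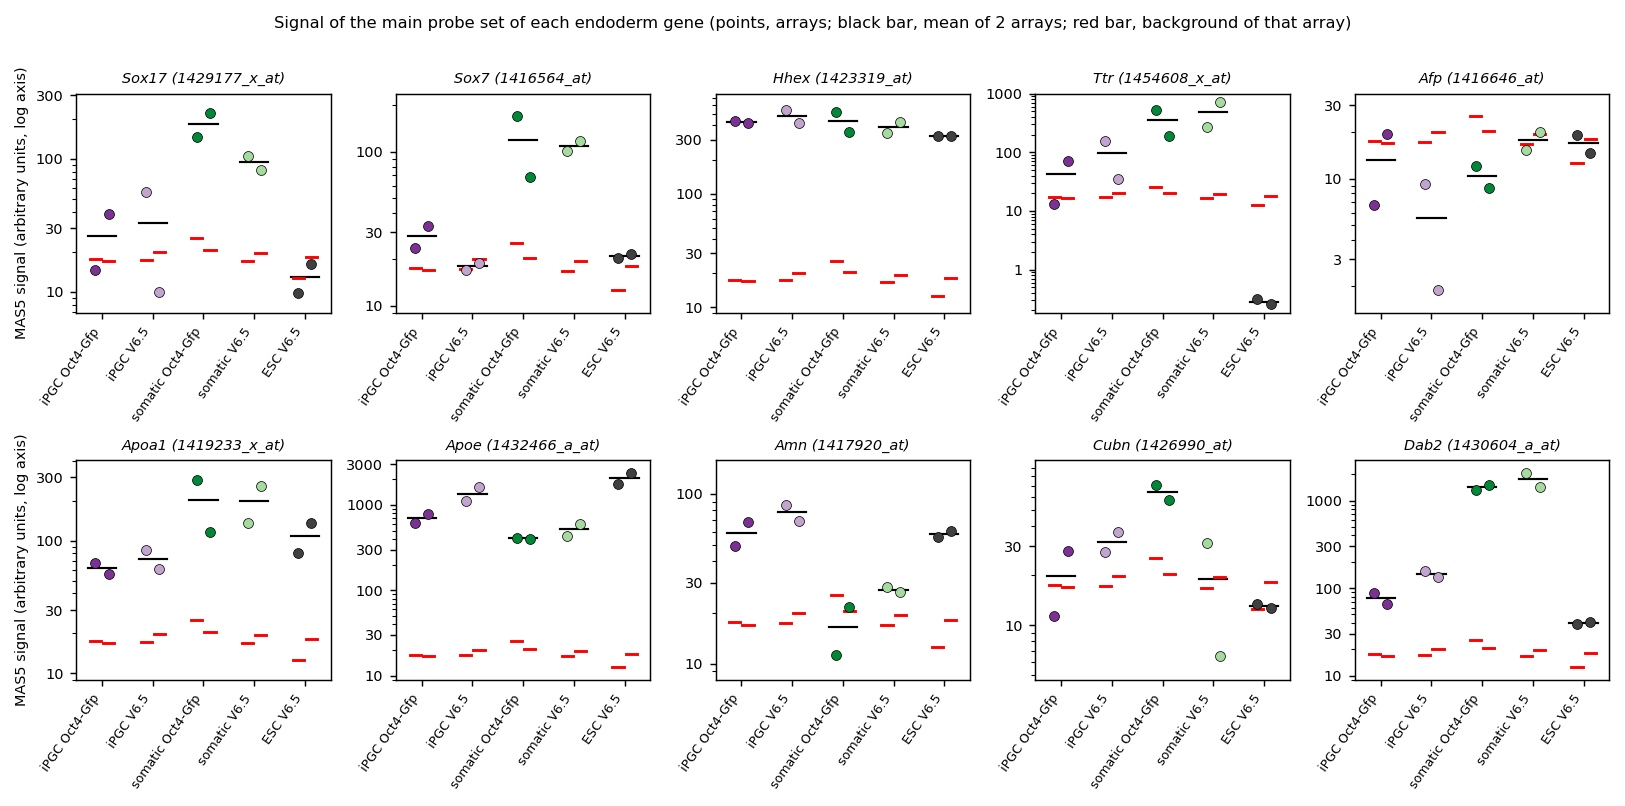
Signal (arbitrary units, log axis, a different range in each panel) of the main probe set of each endoderm gene on each array; points are arrays, black bars the mean of 2 arrays and red bars the background of each array. *Dab2* lay between 1317 and 2067 on the 4 somatic arrays and at 156 or less on all others, while *Apoe* was highest on the 2 ESC arrays and *Hhex* stayed between 319 and 544 throughout.

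*Dab2* encodes an endocytic adaptor that serves the lipoprotein and cobalamin receptors of visceral endoderm, and its main probe set separated the 3 cell types. Its main probe set read 86.9 and 65.6 in Oct4-Gfp iPGCs, 156 and 134 in those of V6.5, 1317 and 1517 in Oct4-Gfp somatic cells, 2067 and 1438 in V6.5 somatic cells, and 39.0 and 40.6 in ESCs. Somatic, iPGC and ESC arrays did not overlap. V6.5 somatic cells exceeded ESCs by a log2 difference of 4.99 ± 0.21 (SE; limma, adjusted p = 1.82e-06), and V6.5 iPGCs exceeded ESCs by 1.54 ± 0.21 (adjusted p = 0.00232). iPGCs were lower than somatic cells by a log2 difference of -3.45 ± 0.21 in V6.5 (adjusted p = 1.24e-05) and -3.98 ± 0.21 in Oct4-Gfp (adjusted p = 7.66e-06). The other 3 *Dab2* probe sets correlated with the main one over the 10 arrays at r = 0.98 to 0.99, and each was called higher in V6.5 somatic cells than in ESCs (log2 difference 4.15 to 4.86). Of these 3, 1 was called higher in V6.5 iPGCs than in ESCs. On 2 of them both ESC arrays lay within background, and V6.5 somatic cells were at least 30.7-fold and at least 23.0-fold higher than ESCs.

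Promoter sequence is shown for genes whose signal separated the populations or stayed at background. RefSeq promoter windows (GRCm38.p6) matched 7 of the 10 genes, with 10 windows, and none for *Sox17*, *Sox7* and *Ttr*. The 250 bases before a start were searched for 5 motifs: TATAAA (the TATA box, gene strand only), GATAA (the core of GATA factor sites), the HNF1 palindrome (GTTAAT and ATTAAC, 1 base apart), TGTTTAC (a FOXA-type site) and ACAAT (the core of SOX sites), the last 4 on both strands. Among 32851 promoters of this length, 7.59%, 22.6%, 0.00913%, 3.17% and 27.7% held them, in that order. The motifs found in the 10 windows did not overlap each other. The *Dab2* window at chr15:6299539-6299788 (plus strand) is shown because *Dab2* carries the clearest difference; it holds 1 GATAA, in capitals, which begins 178 bases before the start. The window of the other *Dab2* start, chr15:6386498-6386747, holds none of the 5 motifs. A GATAA match is a description and does not show a factor bound.
Dab2: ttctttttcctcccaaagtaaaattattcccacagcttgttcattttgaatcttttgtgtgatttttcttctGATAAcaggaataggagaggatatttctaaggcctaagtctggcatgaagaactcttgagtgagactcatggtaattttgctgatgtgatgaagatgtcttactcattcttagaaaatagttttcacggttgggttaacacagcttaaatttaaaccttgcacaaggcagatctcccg

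*Ttr*, the thyroid hormone carrier that yolk sac endoderm and liver secrete, was high in somatic cells and within background in ESCs on its main probe set. It read 13.4 and 72.4 in Oct4-Gfp iPGCs, 157 and 35.6 in those of V6.5, 529 and 192 in Oct4-Gfp somatic cells, 267 and 721 in V6.5 somatic cells, and 0.311 and 0.256 in ESCs. The 2 arrays of each day 6 population differed by 2.70-fold or more, yet no iPGC array reached a somatic array. V6.5 somatic cells were at least 29.0-fold higher than ESCs (log2 difference 4.92 ± 0.79, limma adjusted p = 0.00111), and all 4 *Ttr* probe sets were called in that comparison. On the main probe set V6.5 iPGCs were at least 4.94-fold higher than ESCs (log2 difference 2.62 ± 0.79, adjusted p = 0.0423). This call ended without 1 array: adjusted p was 0.181 without V6.5 iPGC replicate 1, 0.131 without ESC replicate 1 and 0.142 without ESC replicate 2. Of the other 3 *Ttr* probe sets, 1 was called higher in V6.5 iPGCs than in ESCs, by a log2 difference of 1.32. On those not called the bounds were lower than on the main probe set, at least 2.95-fold and at least 2.56-fold. V6.5 iPGC replicate 2 lay within background on both (17.7 and 18.1). Each of these bounds thus rests on 1 iPGC array above background. *Ttr* was lower in iPGCs than in somatic cells, by -2.29 ± 0.79 in V6.5 (adjusted p = 0.0448) and -2.76 ± 0.79 in Oct4-Gfp (adjusted p = 0.0217). Without V6.5 iPGC replicate 2, V6.5 somatic replicate 2, ESC replicate 1 or ESC replicate 2 the V6.5 value lost its call (adjusted p = 0.236, 0.230, 0.0647 and 0.0647), and without Oct4-Gfp iPGC replicate 1 or somatic replicate 1 the Oct4-Gfp value lost its call (adjusted p = 0.126 and 0.136).

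*Sox17*, a SOX factor required for definitive endoderm and also active in endothelium, was above background on the main probe set on all 4 somatic arrays. The signals were 14.6 and 38.1 in Oct4-Gfp iPGCs, 56.3 and 9.87 in those of V6.5, 146 and 221 in Oct4-Gfp somatic cells, 105 and 82.8 in V6.5 somatic cells, and 9.72 and 16.3 in ESCs. Somatic arrays did not overlap the others. V6.5 somatic cells were at least 6.17-fold higher than ESCs (log2 difference 1.97 ± 0.49, limma adjusted p = 0.00925), and adjusted p was 0.0516 without ESC replicate 1 and 0.0535 without V6.5 somatic replicate 1. Oct4-Gfp iPGCs were lower than Oct4-Gfp somatic cells by -2.31 ± 0.49 (adjusted p = 0.0057). In V6.5 the difference of -1.37 ± 0.49 missed the threshold (adjusted p = 0.0507), and it passed without V6.5 iPGC replicate 1 (adjusted p = 0.00475). Against ESCs, V6.5 iPGCs differed by 0.60 ± 0.49 (adjusted p = 0.382), and without V6.5 iPGC replicate 2 by 1.37 (adjusted p = 0.0484). The main probe set is of the type that can cross-hybridize (suffix _x_at), as are the main probe sets of *Ttr* and *Apoa1*. The second *Sox17* probe set did not pass the filter and did not separate the populations. It read 19.7 to 31.3 on somatic arrays, at 1.1 to 1.2 times the background, and 27.5 in V6.5 iPGC replicate 2, above 3 of the 4 somatic arrays. The pair correlated at r = 0.50.

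*Sox7*, its relative in parietal endoderm and endothelium, read 23.6 and 33.0 in Oct4-Gfp iPGCs, 16.9 and 19.0 in those of V6.5, 170 and 68.4 in Oct4-Gfp somatic cells, 101 and 117 in V6.5 somatic cells, and 20.4 and 21.6 in ESCs. All somatic arrays exceeded all others, and both V6.5 iPGC arrays lay within background. V6.5 somatic cells were higher than ESCs by 1.79 ± 0.33 (limma, adjusted p = 0.00214). V6.5 somatic cells were at least 5.86-fold higher than V6.5 iPGCs, with a fitted difference of iPGCs from somatic cells of -1.92 ± 0.33 (adjusted p = 0.00198). In Oct4-Gfp that difference was -1.53 ± 0.33 (adjusted p = 0.00581). V6.5 iPGCs and ESCs differed by -0.13 (95% interval -0.88 to 0.62). The second *Sox7* probe set did not pass the filter and did not show the difference in V6.5. It was within background on both V6.5 somatic arrays (17.1 at most), and V6.5 somatic cells against ESCs gave 0.21 on it without a filter (adjusted p = 0.587). In Oct4-Gfp it read 25.2 (within background) and 22.8 in somatic cells, and 9.84 and 7.34 in iPGCs. There iPGCs against somatic cells gave -0.73 without a filter (limma, adjusted p = 0.0681).

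*Sox17* and *Sox7* also mark endothelium, and 11 endothelial genes were measured beside them. Their summed signal was 836 to 1289 on iPGC arrays, 2322 to 3384 on somatic arrays and 1021 to 1042 on ESC arrays. Of 7 endothelial genes tested, 3 were higher (*Kdr*, *Tek*, *Flt1*) and 3 lower (*Cldn5*, *Eng*, *Pecam1*) in V6.5 somatic cells than in ESCs, beside 30.3% and 31.8% of all genes. *Cdh5*, a defining endothelial gene, read 43.5 to 94.1 on somatic arrays and was not tested, while *Emcn* was above background on 1 array. The part of endothelium in the *Sox17* and *Sox7* differences was not tested.

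*Hhex*, a homeobox gene of anterior visceral and definitive endoderm, read 441 and 419 in Oct4-Gfp iPGCs, 544 and 419 in those of V6.5, 521 and 352 in Oct4-Gfp somatic cells, 344 and 432 in V6.5 somatic cells, and 324 and 319 in ESCs. Every array was at least 17.2 times its background. Both ESC arrays were lowest, but no *Hhex* comparison passed in limma. The nearest was V6.5 iPGCs against ESCs, at 0.55 (95% interval 0.05 to 1.05; adjusted p = 0.0948). Oct4-Gfp iPGCs and somatic cells differed by 0.00 (95% interval -0.50 to 0.50), which leaves room for a change of up to 0.50 on the log2 scale in either direction.

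*Apoe*, an apolipoprotein made by visceral endoderm, macrophages and many other cells, ran the other way and was highest in ESCs. It read 616 and 789 in Oct4-Gfp iPGCs, 1109 and 1613 in those of V6.5, 409 and 401 in Oct4-Gfp somatic cells, 434 and 598 in V6.5 somatic cells, and 1752 and 2377 in ESCs. Somatic, iPGC and ESC arrays did not overlap. V6.5 somatic cells were lower than ESCs by -1.97 ± 0.25 (limma, adjusted p = 0.00034), and V6.5 iPGCs were higher than V6.5 somatic cells by 1.37 ± 0.25 (adjusted p = 0.00297). In Oct4-Gfp the iPGC excess was 0.76 ± 0.25 (adjusted p = 0.0376), and it lost its call without any 1 of the 4 Oct4-Gfp arrays (adjusted p 0.0507 to 0.191). V6.5 iPGCs against ESCs gave -0.60 ± 0.25 (adjusted p = 0.11), and iPGCs of both lines averaged against ESCs gave -1.07 (adjusted p = 0.00648). Macrophage markers, which share *Apoe* and *Dab2*, summed to 225 to 309 on iPGC arrays, 164 to 177 on somatic arrays and 570 to 592 on ESC arrays; of 8 such genes *Cd68* alone was tested. *Cd14* and *Adgre1*, a defining macrophage gene, lay within background on all 10 arrays, whereas *Csf1r*, the receptor of a macrophage growth factor, exceeded it on all 10 (22.9 to 38.2) and *Mrc1* on 8. The *Apoe* window of the start farthest upstream in the table, chr7:19699189-19699438 (minus strand), is shown because *Apoe* moved opposite to *Dab2*. It holds no match to the TATA box, GATA, full HNF1 palindrome or FOXA motif and 1 ACAAT, in capitals, that begins 144 bases before the start. Of the other 2 *Apoe* windows, the one that begins at 19698622 holds a TATAAA, 96 bases before its start, and the remaining one holds none of the 5 motifs.
Apoe: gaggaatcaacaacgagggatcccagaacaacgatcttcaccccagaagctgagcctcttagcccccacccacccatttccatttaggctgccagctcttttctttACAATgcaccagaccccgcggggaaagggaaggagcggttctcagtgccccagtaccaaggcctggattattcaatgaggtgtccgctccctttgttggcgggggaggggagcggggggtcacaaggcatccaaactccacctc

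*Apoa1*, the main apolipoprotein of high-density lipoprotein, read 67.5 and 56.5 in Oct4-Gfp iPGCs, 85.1 and 60.8 in those of V6.5, 287 and 116 in Oct4-Gfp somatic cells, 136 and 259 in V6.5 somatic cells, and 81.0 and 135 in ESCs. The somatic arrays exceeded every iPGC array, but Oct4-Gfp somatic replicate 2 lay below ESC replicate 2. Oct4-Gfp iPGCs were lower than somatic cells by -1.38 ± 0.44 (limma, adjusted p = 0.0324), and all 4 *Apoa1* probe sets were called in that comparison. Without Oct4-Gfp iPGC replicate 1, iPGC replicate 2 or somatic replicate 1 the main probe set lost its call (adjusted p = 0.0801, 0.132 and 0.195). In V6.5 the difference was -1.22 ± 0.44 (adjusted p = 0.0512). It lay between -1.66 (without V6.5 somatic replicate 1) and -0.79 under the alternatives, and 7 of 21 gained the call. No *Apoa1* probe set was called in V6.5 in the main fit. The others gave -1.29, -1.02 and -0.57 (limma, adjusted p = 0.0941, 0.252 and 0.35). On the probe sets with -1.02 and -0.57 the V6.5 iPGC and somatic arrays overlapped. V6.5 somatic cells against ESCs gave 0.76 ± 0.44 (adjusted p = 0.171).

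*Afp*, the serum protein by which yolk sac endoderm is commonly recognized, was at background. On 4 of its 5 probe sets all 10 arrays lay within background. The remaining probe set read 6.75 and 19.5 in Oct4-Gfp iPGCs, 9.27 and 1.88 in those of V6.5, 12.0 and 8.73 in Oct4-Gfp somatic cells, 15.4 and 20.1 in V6.5 somatic cells, and 19.2 and 14.7 in ESCs. No array of it exceeded its background by more than 1.53-fold, and no order of populations can be read from it. The *Afp* window, chr5:90490464-90490713 (plus strand), is shown as that of a gene at background. It holds a TATAAA, in capitals, 7 bases before the annotated start, and no GATAA, full HNF1 palindrome, TGTTTAC or ACAAT match. The full palindrome occurred in only 0.00913% of promoters. Its absence is therefore not read as a lack of HNF1-type sites.
Afp: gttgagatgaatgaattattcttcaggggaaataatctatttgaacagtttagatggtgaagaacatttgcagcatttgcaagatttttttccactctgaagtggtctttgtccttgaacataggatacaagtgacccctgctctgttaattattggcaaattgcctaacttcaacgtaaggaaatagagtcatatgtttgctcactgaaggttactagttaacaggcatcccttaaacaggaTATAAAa

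*Amn* and *Cubn* encode amnionless and cubilin, which together form the cubam receptor of visceral endoderm, kidney and gut. *Amn* read 49.2 and 68.1 in Oct4-Gfp iPGCs, 86.4 and 69.1 in those of V6.5, 11.3 and 21.7 in Oct4-Gfp somatic cells, 28.2 and 26.3 in V6.5 somatic cells, and 56.0 and 60.1 in ESCs. All somatic arrays were lower than all others, and Oct4-Gfp somatic replicate 1 lay within background. V6.5 iPGCs exceeded V6.5 somatic cells by 1.13 ± 0.20 (limma, adjusted p = 0.00271), and Oct4-Gfp iPGCs exceeded Oct4-Gfp somatic cells by 1.24 ± 0.20 (adjusted p = 0.00171). V6.5 somatic cells were lower than ESCs by -0.79 ± 0.20 (adjusted p = 0.0112), with adjusted p of 0.0579 without ESC replicate 2 and 0.0556 without V6.5 somatic replicate 2. *Cubn* read 11.4 and 28.1 in Oct4-Gfp iPGCs, 27.7 and 36.4 in those of V6.5, 71.1 and 57.3 in Oct4-Gfp somatic cells, 31.4 and 6.55 in V6.5 somatic cells, and 13.5 and 12.7 in ESCs. The Oct4-Gfp somatic arrays were highest on both *Cubn* probe sets (52.2 and 70.2 on the second), whereas V6.5 somatic replicate 2 lay within background on the first and at 36.2 on the second. *Cubn* did not pass the filter, and its probe sets correlated at r = 0.42. In the fit without a filter both were lower in Oct4-Gfp iPGCs than in Oct4-Gfp somatic cells, by -1.23 (limma, adjusted p = 0.0391) and -1.27 (adjusted p = 0.035), and no other *Cubn* comparison passed.

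**Figure D2:**
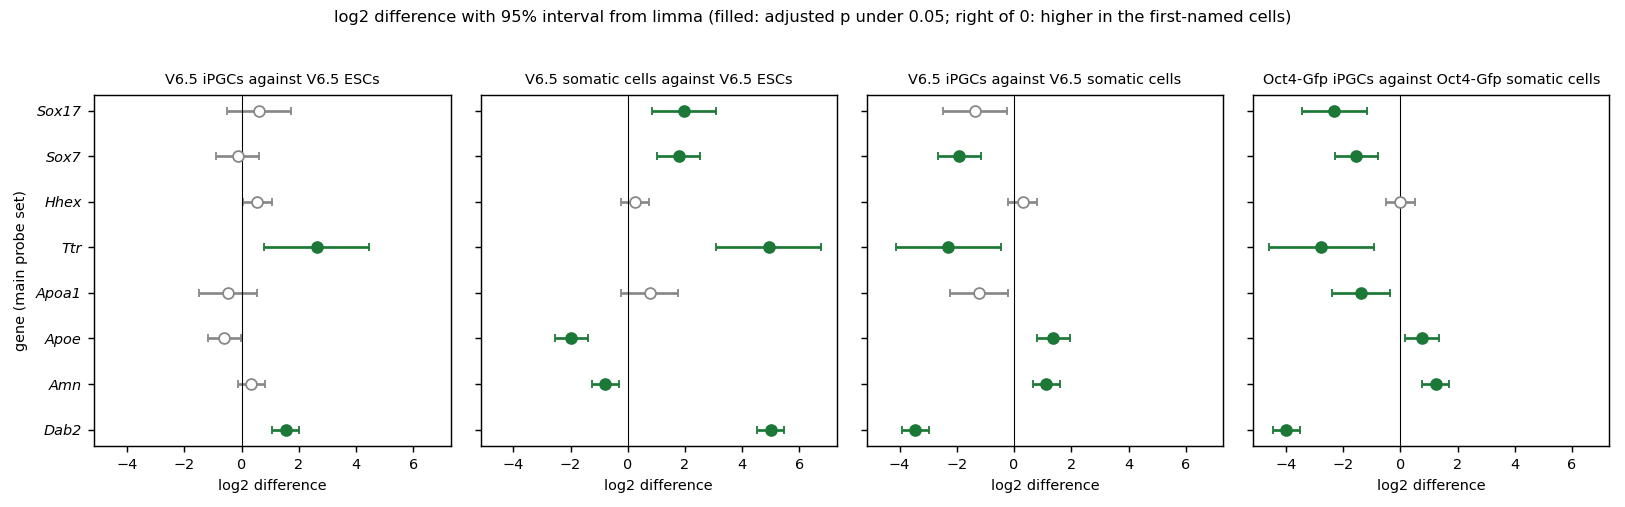
The log2 difference (x axis, on the scale of log2 of signal plus 14.8) of the 8 tested endoderm genes in 4 comparisons, with 95% intervals from limma; filled points passed an adjusted p of 0.05. *Dab2* and *Ttr* lay right of 0 in both comparisons with ESCs and left of 0 in both comparisons of iPGCs with somatic cells, and *Apoe* and *Amn* lay right of 0 in those 2 comparisons.

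None of the 8 tested genes was called between lines. Between Oct4-Gfp and V6.5 somatic cells 0 of 8 endoderm genes were called in limma and 0 had an unadjusted p under 0.05, beside 0.0820% of all genes called (0.0328% higher, 0.0492% lower). Between Oct4-Gfp and V6.5 iPGCs 0 of 8 were called, beside 0.00% of all genes, while *Apoe* (-0.93 ± 0.25, adjusted p = 0.112) and *Dab2* (-0.82 ± 0.21, adjusted p = 0.0983) had an unadjusted p under 0.05, and limma-trend called *Apoe*. The difference between lines in the contrast of iPGCs with somatic cells was called for 0 of 8 genes (0 at an unadjusted p under 0.05), beside 0.00820% of all genes. The intervals were wide with 2 arrays per population, from -3.04 to 2.11 for *Ttr* and from -1.20 to 0.14 for *Dab2*. Line differences within them are not excluded.

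Counted by probe set, 7 of 26 lay within background on both arrays of Oct4-Gfp iPGCs. The count was 7 for V6.5 iPGCs, 5 for each somatic population and 11 for ESCs. In ESCs these included both *Sox17* probe sets, 3 of the 4 *Ttr* probe sets and 2 of the 4 *Dab2* probe sets. In the V6.5 iPGCs all probe sets of *Sox7* and of *Afp* lay within background, and all of *Afp* in Oct4-Gfp somatic cells.

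**Figure D3:**
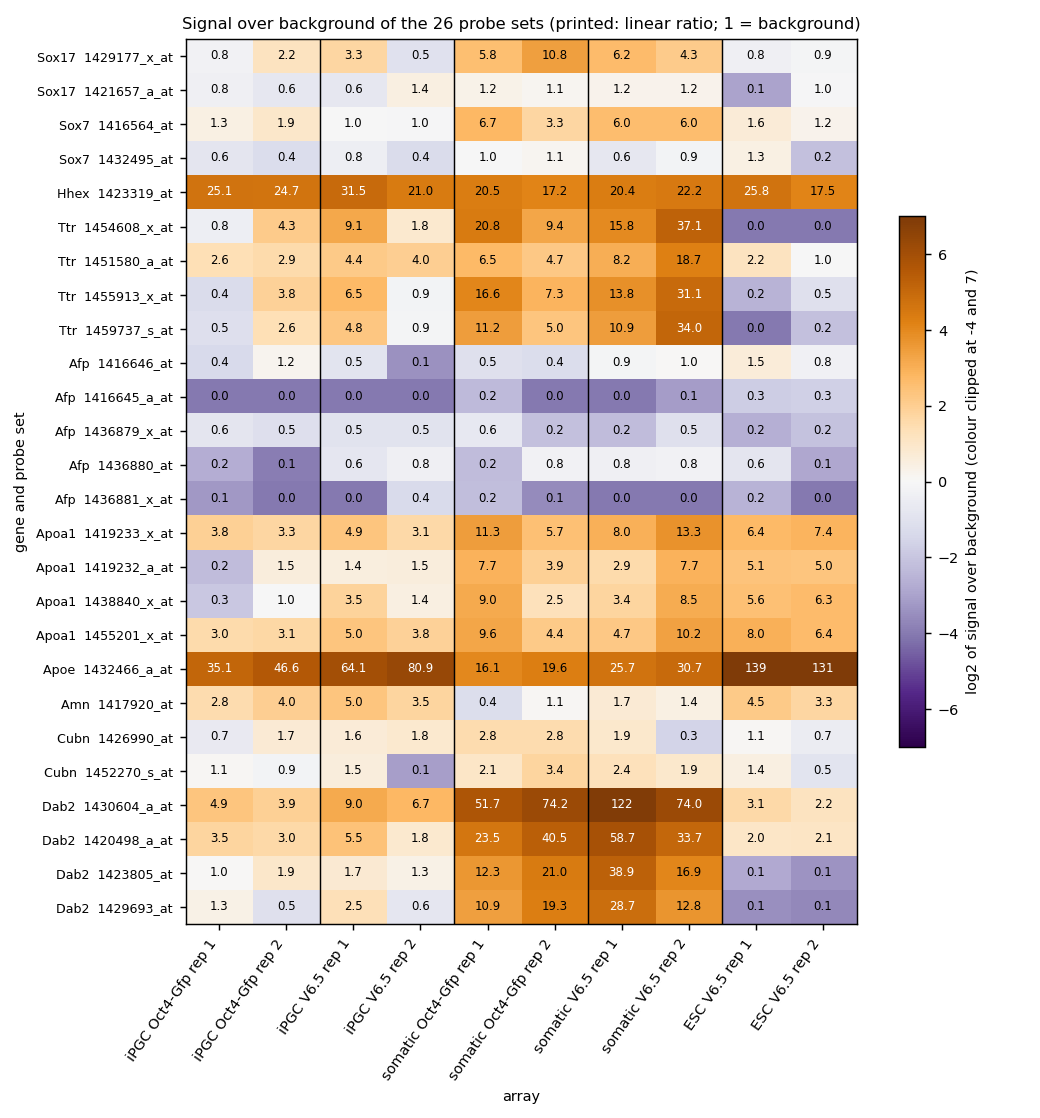
Signal over background (printed as a linear ratio, coloured on a log2 scale) of the 26 probe sets (rows, main probe set of each gene first) on the 10 arrays (columns); a ratio of 1 or less is within background. *Dab2*, *Hhex* and *Apoe* exceeded background on every array with their main probe sets, while 4 of the 5 *Afp* rows were within background on every array.

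Other endoderm genes were read from lists drawn up with earlier results of these data known. Genes of these lists, too, could pass the filter only because they were high in one population, such as somatic cells. Nothing is therefore read from the counts and medians of these lists, here or below, about a list as a set. Of 13 endoderm regulators 6 were tested, and in V6.5 somatic cells 4 were higher and 2 lower than in ESCs (30.3% and 31.8% of all genes), with a median log2 difference of 3.33 beside -0.04 over all genes tested. *Pdgfra*, a growth factor receptor of primitive endoderm and mesoderm, read 2571 to 5140 on somatic arrays and 29.1 to 35.7 on ESC arrays (V6.5 somatic cells against ESCs, 6.76, limma adjusted p = 9.06e-07). *Gata6* and *Gata4*, GATA factors of primitive endoderm and heart, were higher by 6.38 (adjusted p = 3.27e-06) and 4.12 (adjusted p = 1.35e-05). *Gata4* did not pass in V6.5 iPGCs against ESCs (0.27, adjusted p = 0.487), whereas *Gata6* did (1.35, adjusted p = 0.0167), a call that ended without ESC replicate 1 (0.89, adjusted p = 0.0717) or V6.5 iPGC replicate 2 (1.17, adjusted p = 0.0701). *Foxa1*, *Foxa2* and *Hnf4a*, factors that define definitive and visceral endoderm, were not tested and read at most 73.0 on any array. Cardiac mesoderm genes, some of which need *Gata4*, summed to 605 to 1103 on iPGC arrays, 13419 to 14620 on somatic arrays and 652 to 890 on ESC arrays, and 7 fibroblast genes summed to 402 to 682, 7434 to 12080 and 843 to 973 on the same 3 kinds of array. Their part in the *Gata4*, *Gata6* and *Pdgfra* differences was not tested.

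*Eomes*, a T-box factor of the primitive streak and definitive endoderm, was the 1 regulator of the 6 tested that was called between lines. It read 374 and 402 in Oct4-Gfp iPGCs, 349 and 419 in those of V6.5, 815 and 904 in Oct4-Gfp somatic cells, 103 and 140 in V6.5 somatic cells, and 292 and 330 in ESCs. Both Oct4-Gfp somatic arrays were above every iPGC and ESC array and both V6.5 somatic arrays below every one of them. Oct4-Gfp somatic cells exceeded V6.5 somatic cells by 2.69 ± 0.17 (limma, adjusted p = 0.00454), with adjusted p of 0.0507 without V6.5 somatic replicate 1 and 0.0788 without Oct4-Gfp somatic replicate 2. iPGCs were lower than somatic cells in Oct4-Gfp (-1.12 ± 0.17, adjusted p = 0.00132) and higher in V6.5 (1.55 ± 0.17, adjusted p = 0.000236). The difference between these contrasts was -2.67 ± 0.25 (adjusted p = 0.0391), and it lost its call without any 1 array (adjusted p 0.0816 to 0.197).

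Of 19 genes of visceral endoderm secretion and uptake 10 were tested. In V6.5 somatic cells 3 were higher than in ESCs (*Apob* 1.66, *Mttp* 1.50 and *Apom* 0.83) and 2 were lower, *Tdgf1*, a Nodal co-receptor of pluripotent cells, by -6.21 (limma, adjusted p = 0.000335) and *Apoa2*, an apolipoprotein, by -4.29 (adjusted p = 4.37e-06), beside 30.3% and 31.8% of all genes. The *Apob* call ended without ESC replicate 2 (1.14, adjusted p = 0.126) or V6.5 somatic replicate 2 (1.26, adjusted p = 0.118). *Apom* lost its call without ESC replicate 1 (0.78, adjusted p = 0.113), ESC replicate 2 (0.88, adjusted p = 0.0842) or V6.5 somatic replicate 2 (0.48, adjusted p = 0.194). *Apob* and *Mttp*, the core protein and the lipid loader of secreted lipoproteins, read 46.1 to 149 and 74.8 to 90.3 on somatic arrays. The medians of those arrays were 72.9 to 91.6. Both genes thus lay near the filter level there and may have been tested only because they were high in somatic cells. The median of the 10 was 0.43. In V6.5 iPGCs 0 were higher and 2 lower than in ESCs, beside 17.3% and 12.9% of all genes. *Fga* and *Slc2a2*, a fibrinogen chain and a glucose transporter of yolk sac and liver, lay within background on all 10 arrays.

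All 12 parietal endoderm genes were tested, and in V6.5 somatic cells 8 were higher and 0 lower than in ESCs, beside 30.3% and 31.8% of all genes. Those with the largest change were *Col4a2* (1872 to 3040 on somatic arrays, 160 to 177 on ESC arrays), *Plat* (3.65), *Col4a1* (3.57) and *Pth1r* (3.35), which encode basement membrane collagens, tissue plasminogen activator and the parathyroid hormone receptor. In V6.5 iPGCs 3 were higher and 1 lower than in ESCs, beside 17.3% and 12.9% of all genes, and the median was -0.01 there against 0.93 in V6.5 somatic cells. Of 9 gut endoderm genes tested, 6 were higher in V6.5 somatic cells than in ESCs and 3 lower (30.3% and 31.8% of all genes), the largest being *Trh* (-6.61), *Cdx2* (5.65), *Krt8* (3.91) and *Cxcr4* (3.53). *Cdx2*, a factor of hindgut and trophectoderm, was also higher in V6.5 iPGCs than in ESCs (3.24, adjusted p = 0.00132). Fibroblast and cardiac mesoderm genes also summed higher on somatic than on ESC arrays, with the values given above. The part of such cells in the parietal and gut endoderm differences was not tested.

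**Figure D4:**
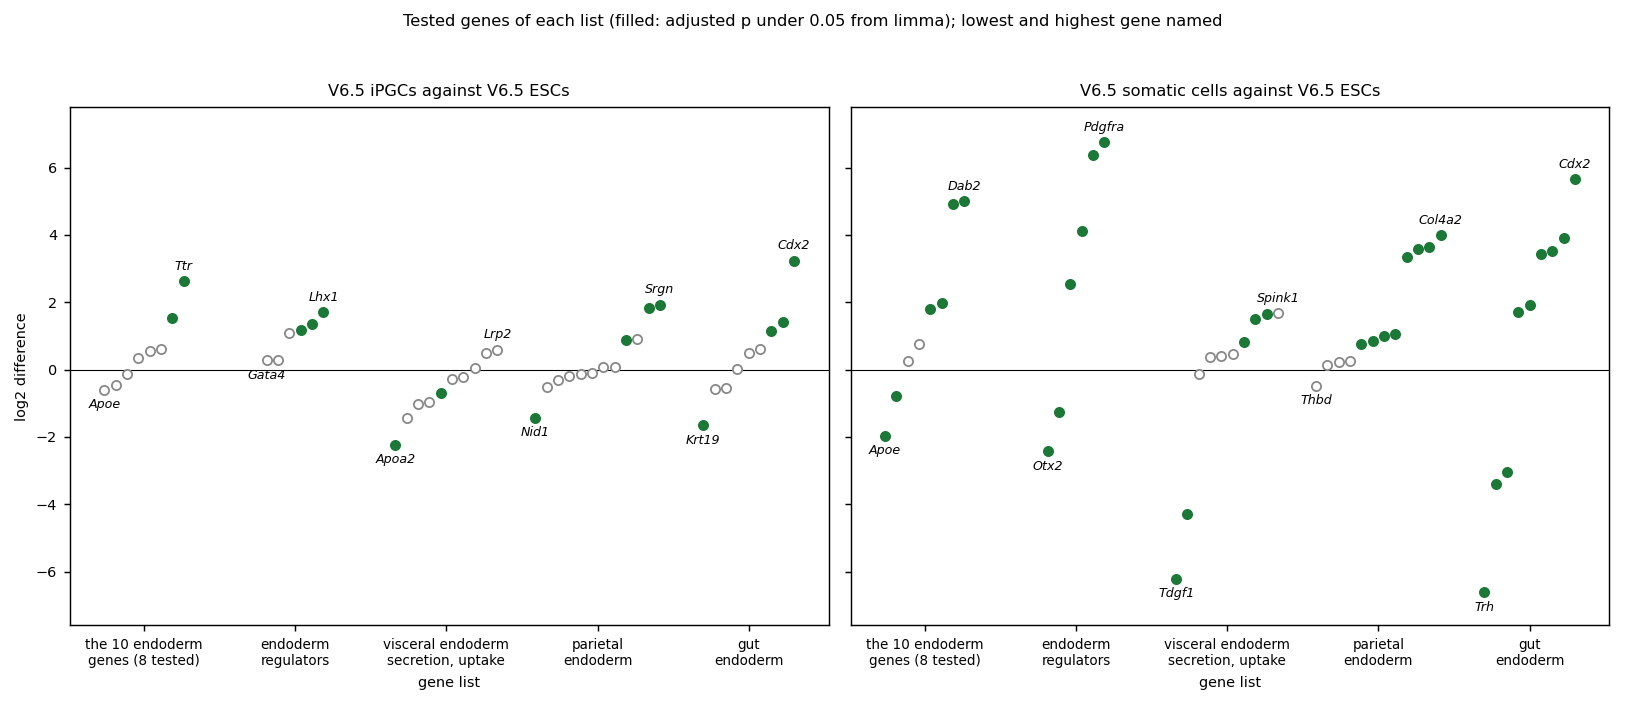
The log2 difference (y axis) of each tested gene of 5 gene lists (x axis) in V6.5 iPGCs against V6.5 ESCs and in V6.5 somatic cells against V6.5 ESCs; filled points passed an adjusted p of 0.05 in limma, and the lowest and highest gene of each list are named. In somatic cells the regulators spanned -2.43 (*Otx2*) to 6.76 (*Pdgfra*), and the 8 tested endoderm genes spanned -1.97 (*Apoe*) to 4.99 (*Dab2*).

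Genes whose main probe set followed each endoderm gene most closely were ranked by Pearson r of log2 signal over the 10 arrays, which share their populations and normalization, as a description. *App* (r = 0.997), *Clstn2* (r = 0.996) and *Furin* (r = 0.995) followed *Dab2*. *Apom* (r = 0.934) was among the 3 nearest to *Apoa1*. *Hhex* had the weakest neighbours, led by *Bend3* (r = 0.900).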

How the data were processed

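The authors deposited linear signal intensity. The submitters' processing notes name MAS5 for it, without a version, while the methods of the paper name D-Chip model-based expression. Which of them holds for other steps is not given in the sources used here. The signals ranged from 0.0142 to 30783. Platform annotation gave 1 symbol to 34958 probe sets, several to 932 and none to 9211; 64 control probe sets were left out.

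Log2 of the deposited signal plus 14.8 (the 25th percentile of the table) entered one limma fit of all 5 populations (limma 3.58.1, R 4.3.3). Residual degrees of freedom were 5 and prior ones 2.92. Benjamini-Hochberg adjustment covered 26368 probe sets. A gene was called at an adjusted p under 0.05. No array was dropped or imputed. The number of arrays limits the precision.

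The members and lists were chosen with earlier results of these data known. Named genes were all 10 endoderm genes, up to 3 genes of like pattern each, and up to 4 called genes of each other list with the largest change. Genes named for being at background, untested or markers of another cell type were named after their values were seen, as was *Eomes*. A search for GTTAAT, tried after the promoter windows had been read, was dropped, and the 5 motifs searched first are all reported.

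Alternatives were a floor or a doubled offset, no filter or a filter of 5 arrays, quantile normalization, median centring, limma-trend, only the arrays compared, the replicate number as a block, both lines averaged, the probe set of highest variance, a threshold of 3-fold with p under 0.01, other background percentiles (90 and 99), and each array left out. Deviations of samples with the same replicate number were compared: of 10 pairs of groups, 2 had a correlation over 0.1 (range -0.29 to 0.26). Both were within a line, V6.5 ESCs with V6.5 iPGCs (0.26) and Oct4-Gfp iPGCs with Oct4-Gfp somatic cells (0.13). V6.5 somatic cells gave -0.02 with V6.5 ESCs and 0.01 with V6.5 iPGCs. A shared culture or sort within a line is therefore not excluded.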

Additional observations from a re-analysis of the deposited data

Results flagged for a closer look

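*Eomes* is listed because its contrast of iPGCs with somatic cells differed between the lines by a test of the difference itself (Oct4-Gfp minus V6.5, -2.67 on the log2 scale, limma adjusted p = 0.0391). iPGCs were lower than somatic cells by -1.12 in Oct4-Gfp and higher by 1.55 in V6.5, with 2 arrays per population. The call was lost in each fit that left out 1 array and with the replicate number as a block (adjusted p = 0.186). Line and sorting marker changed together and cannot be told apart.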

How the results depend on the processing

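Of 1171 log2 differences of single endoderm genes recomputed under the alternatives, 1075 kept their direction and their side of the threshold, 36 changed sign while passing in neither fit, 46 lost the call and 14 gained one. In V6.5 iPGCs against ESCs the count of 2 called genes became 1 with no filter, a doubled offset, a floor instead of it, quantile normalization or only the arrays compared, 0 at 3-fold with an unadjusted p under 0.01, 3 with both lines averaged, and 1 to 3 with an array left out (1 without ESC replicate 1, ESC replicate 2 or V6.5 iPGC replicate 1). *Ttr* lost this call under 10 of 22 alternatives and *Dab2* under 1, the 3-fold threshold. In V6.5 somatic cells against ESCs the count of 6 became 3 with the stricter filter, which tests fewer of the genes, and was 5 to 6 with an array left out. In V6.5 iPGCs against V6.5 somatic cells the count of 5 became 2 at the 3-fold threshold, 7 with a doubled offset or limma-trend (*Sox17* and *Apoa1* gained) and 4 to 6 with an array left out. In Oct4-Gfp iPGCs against Oct4-Gfp somatic cells the count of 7 became 4 with the stricter filter, 3 at the 3-fold threshold and 4 to 7 with an array left out (4 without Oct4-Gfp iPGC replicate 1 or somatic replicate 1). Between the iPGC lines the count of 0 became 1 with limma-trend. The 5 probe sets within background in Oct4-Gfp somatic cells became 8 at the 99th percentile of olfactory receptors. With the replicate number as a block the counts were 2, 6, 4 and 6 in the 4 comparisons of cell types, in the order above; *Ttr* lost both V6.5 iPGC calls and *Apoa1* its Oct4-Gfp call, *Apoe* gained a call in V6.5 iPGCs against ESCs (adjusted p = 0.0441), and no other call of these genes changed. For the 17 named genes of the other endoderm lists the same alternatives were run after seeing the data: of 539 values 35 lost the call and 1 turned, *Eomes* in somatic cells against ESCs, at 0.0798 with both lines averaged (adjusted p = 0.665) against -1.27 in V6.5. *Eomes* kept the call of a line difference under 6 of 21 alternatives; with the replicate block its adjusted p was 0.186. Except where a setting's own construction shows it, the cause was not tested. Signals near background, 2 arrays per population and the absence of Oct4-Gfp ESCs from the arrays analysed limit what these comparisons can show.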
